A study of Mus musculus with 4 samples.

Results

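The glutamate uptake carriers Slc1a1, Slc1a2, Slc1a3 and Slc1a6, the related amino acid exchanger Slc1a4 and glutamine synthetase, Glul, were read on 4 Affymetrix Mouse Gene ST arrays from the brains of ICR mice. The genes were taken by symbol: every array row annotated to exactly 1 of these 6 symbols was used, which gave 7 rows (2 for Glul, 1 for each other gene) out of 21789 rows for 19938 genes that were tested. All mice were ICR mice that were 1 month old at the start, had a daily intraperitoneal injection for 3 months and received either ketamine at 30 mg/kg or saline. Ketamine blocks the NMDA type of glutamate receptor. Each array carries conflicting treatment labels. By their titles 2 arrays are saline and 2 are ketamine; in the source field the same pairs carry the opposite names. Groups are named here by title, and differences are signed so that a positive value is higher under the ketamine title, which the source field would turn round. The labels give female mice, and the methods give males. Each group held 2 arrays, and no source states that an array is a pool of animals. The labelled tissue is prefrontal cortex, but on the arrays titled ketamine 14 of 16 measured forebrain projection neuron markers were lower by limma, 1 was higher and 1 not called, and 2 of the 16 read on both arrays below the background level described next. On the same arrays 14 of 14 markers of cerebellar granule cells were higher. The forebrain marker that was higher, Etv1, is also in the granule cell list. Title, treatment and tissue composition cannot be told apart on these arrays.

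Values are log2 expression by RMA, the authors' background-corrected and normalized signal. The array medians over the tested rows lay between 5.90 and 6.04. Pairs of arrays correlated across genes at 0.995 to 0.996 within a group and at 0.959 to 0.969 between groups. The 95th percentile of 1023 olfactory receptor rows, from 4.20 to 4.56 across the arrays, served as a background level, and all 7 rows of the 6 genes read above it on every array. Over the whole set of tested rows the median log2 difference was 0.13, and after quantile normalization it was -0.05. With 2 arrays against 2, an exact permutation test cannot give a two-sided p below 0.333, so calls rest on limma, fitted to the whole table with Benjamini-Hochberg adjustment and a threshold of 0.05. By the methods the arrays hold samples drawn at random from each treatment group, but no source states that each was a separate animal. The p-values measure the spread between these arrays alone. A lower value in bulk tissue can mean fewer cells of a type or less RNA per cell, which cannot be told apart here.

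Glutamate is the main excitatory transmitter of the brain, and no enzyme breaks it down in the synaptic cleft. It is cleared by sodium-coupled carriers of the SLC1 family. The astroglial carriers are Slc1a2 (GLT-1), which does most of the uptake in the forebrain, and Slc1a3 (GLAST), which is dense on the Bergmann glia of the cerebellum. The neuronal carriers are Slc1a1 (EAAC1), which is widespread and also takes up cysteine, and Slc1a6 (EAAT4), which sits on the dendritic spines of Purkinje cells and also conducts chloride. Slc1a4 (ASCT1) belongs to the same family but exchanges alanine, serine, cysteine and threonine and is no glutamate carrier. Inside astrocytes Glul joins glutamate and ammonia to glutamine, which is passed back to neurons, and oligodendrocytes express Glul as well.

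The promoter windows of 4 of these genes are shown because their differences span the range from the largest fall to the largest rise and include the astroglial pair that moved in opposite directions. They are the RefSeq windows of build GRCm38.p6, from 250 bases before to 50 bases after a transcript start; 6 of the 6 genes were matched by symbol. Capitals mark matches, on either strand, to the GC box GGGCGG, to the E-box CACGTG and to the nuclear receptor half-site AGGTCA, the core letters bound by receptors such as Rora. The windows are chr10:78780246-78780545 on the plus strand for Slc1a6, chr19:28834885-28835184 on the plus strand for Slc1a1, chr15:8710758-8711057 on the minus strand for Slc1a3 and chr2:102706188-102706487 on the plus strand for Slc1a2.
Slc1a6 promoter: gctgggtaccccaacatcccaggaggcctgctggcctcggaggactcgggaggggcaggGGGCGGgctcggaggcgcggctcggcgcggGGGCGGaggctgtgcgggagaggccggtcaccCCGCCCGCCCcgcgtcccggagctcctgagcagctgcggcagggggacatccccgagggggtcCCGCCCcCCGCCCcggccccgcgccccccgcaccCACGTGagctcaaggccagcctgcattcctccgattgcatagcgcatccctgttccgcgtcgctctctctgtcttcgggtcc
Slc1a1 promoter: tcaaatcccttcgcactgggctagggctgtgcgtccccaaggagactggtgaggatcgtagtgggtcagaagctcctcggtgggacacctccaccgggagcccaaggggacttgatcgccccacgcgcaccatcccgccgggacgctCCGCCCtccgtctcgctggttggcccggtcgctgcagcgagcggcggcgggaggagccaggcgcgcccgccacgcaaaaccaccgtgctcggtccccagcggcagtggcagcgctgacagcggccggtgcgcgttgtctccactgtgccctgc
Slc1a3 promoter: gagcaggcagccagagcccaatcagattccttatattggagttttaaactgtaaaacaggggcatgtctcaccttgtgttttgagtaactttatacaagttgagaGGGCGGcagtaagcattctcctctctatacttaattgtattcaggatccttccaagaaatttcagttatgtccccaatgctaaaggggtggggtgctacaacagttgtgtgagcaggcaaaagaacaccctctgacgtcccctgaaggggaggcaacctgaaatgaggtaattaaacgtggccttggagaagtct
Slc1a2 promoter: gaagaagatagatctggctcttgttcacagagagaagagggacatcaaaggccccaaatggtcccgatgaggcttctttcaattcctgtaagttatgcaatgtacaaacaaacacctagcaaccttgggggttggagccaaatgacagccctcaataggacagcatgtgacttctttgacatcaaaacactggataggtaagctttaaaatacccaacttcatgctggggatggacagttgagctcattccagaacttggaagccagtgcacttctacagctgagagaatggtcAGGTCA

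The Slc1a6 window held 6 GC boxes, of which 1 pair overlapped, and 1 E-box. Slc1a1 held 1 GC box and Slc1a3 held 1. The Slc1a2 window held no GC box and 1 AGGTCA. Of the windows not shown, Slc1a4 held 3 GC boxes, and Glul held 1 GC box and 1 AGGTCA. Of 32851 windows of the same length, 35.7% held a GC box, 7.15% the E-box and 16.3% AGGTCA. The windows also differed in CpG dinucleotides, with 32 in Slc1a6, 32 in Slc1a1, 21 in Slc1a4 and 17 in Glul, but 3 in Slc1a3 and 1 in Slc1a2, against a median of 7 over all windows. Slc1a6 and Slc1a3, which were higher, thus differed widely in CpG content, and so did Slc1a1 and Slc1a2, which were lower. The start used for Slc1a2 lies 48199 bases inside the annotated span of the gene, so that its window is that of an internal start, and that used for Slc1a6 lies 410 bases inside. These matches describe letters only.

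Of the 7 rows, 2 were higher on the arrays titled ketamine (Slc1a6 and Slc1a3) and 3 were lower (Slc1a1, Slc1a4 and Slc1a2), while the 2 Glul rows did not pass. Over all tested rows limma called 23.4% higher (5109 rows) and 9.71% lower (2115 rows). That split depended on scaling, with 2923 higher and 4049 lower after quantile normalization and 3210 and 3213 after median centring. On the deposited values the 2 of 7 rows that were higher stood beside 23.4% of all rows, and the 3 of 7 that were lower beside 9.71%. The calls among the 7 rows stayed at 2 and 3 after both scalings, while the counts over all rows moved. With 7 rows these shares are a description only. Both arrays titled ketamine read above both titled saline for 2 of the 7 rows, against 48.4% of all rows, and below both for 4 of the 7, against 21.5% of all rows. Only row 10350753 of Glul had overlapping groups.

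**Figure D1:**
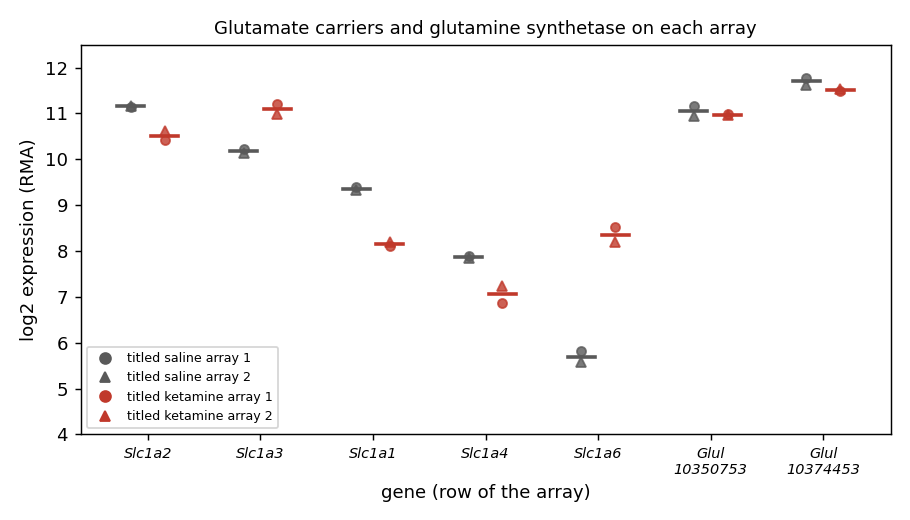
Log2 expression (RMA, y axis) of each row of the 6 genes (x axis) on each array, with grey for titled saline, red for titled ketamine, circles for array 1 and triangles for array 2; bars are group means of 2 arrays. Slc1a6 rises from a mean of 5.69 to 8.36 and Slc1a3 from 10.18 to 11.09, while Slc1a1, Slc1a4 and Slc1a2 fall and the Glul rows lie close together; heights of different rows are not comparable.

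The astroglial carriers moved in opposite directions. Slc1a2 read 11.14 and 11.16 on the arrays titled saline and 10.41 and 10.61 on those titled ketamine. Both arrays titled ketamine were lower, and the gap between them (0.20) was larger than that between the arrays titled saline (0.02). The group means were 11.15 ± 0.01 and 10.51 ± 0.14 (SD, n = 2 each), a log2 difference of -0.64 (standard error 0.12, 95% interval -0.91 to -0.36, adjusted p = 0.00635 from limma), which is a ratio of 0.643. Slc1a3 read 10.23 and 10.13 on the arrays titled saline and 11.20 and 10.98 on those titled ketamine. The groups did not overlap, and here the arrays titled ketamine were the higher ones. The means were 10.18 ± 0.07 and 11.09 ± 0.16 (SD, n = 2 each), a log2 difference of 0.91 (standard error 0.12, 95% interval 0.62 to 1.20, adjusted p = 0.00178 from limma), or 1.88-fold. Of all tested rows, 15.6% had a larger difference in size than Slc1a2 and 8.03% a larger one than Slc1a3.

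Slc1a3 was also set against Slc1a2 on the same array, which removes any shift that is equal for all rows of an array. The log2 value of Slc1a3 minus that of Slc1a2 was -0.92 and -1.03 on the arrays titled saline and 0.79 and 0.36 on those titled ketamine. Only the change of this quantity is of use, because the probes of different rows differ in strength. It rose by 1.55 (pooled SD 0.22, n = 2 arrays a group), a 2.93-fold shift towards Slc1a3, with an exact permutation p of 0.333, the smallest that this design allows, and by 1.54 after quantile normalization. Some markers of astrocytes moved with it. Of 15 astrocyte markers 8 were higher and none lower by limma, with 7 not called, beside 23.4% higher and 9.71% lower over all rows. The median of the list was 0.47. The linear signal summed over this list was 12329.6 and 11631.5 on the arrays titled saline and 18793 and 18730.3 on those titled ketamine. The calcium-binding protein gene S100b was higher by 1.40, the water channel gene Aqp4 by 1.26 and the bicarbonate transporter gene Slc4a4 by 1.20. Gfap, the intermediate filament protein of astrocytes, had a difference of -0.11 and did not pass. The 7 astrocyte markers not called had differences from -0.11 to 0.30. Of 8 measured Bergmann glia markers 4 were higher and 4 did not pass, with the growth factor gene Gdf10 at 3.24, the AMPA receptor subunit gene Gria4 at 1.87 and Hopx at 1.86. Of the 4 that did not pass, Slc6a11 and Etv5 had differences of -0.63 and -0.39, and Fabp7 and Gria1 of 0.63 and 0.12. After quantile normalization or median centring, 2 of the 8 Bergmann glia markers were lower by limma, where none was on the deposited values. All 15 astrocyte markers and all 8 Bergmann glia markers read above the background level on every array. The part of these cells in the values of Slc1a2 and Slc1a3 was not tested.

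**Figure D2:**
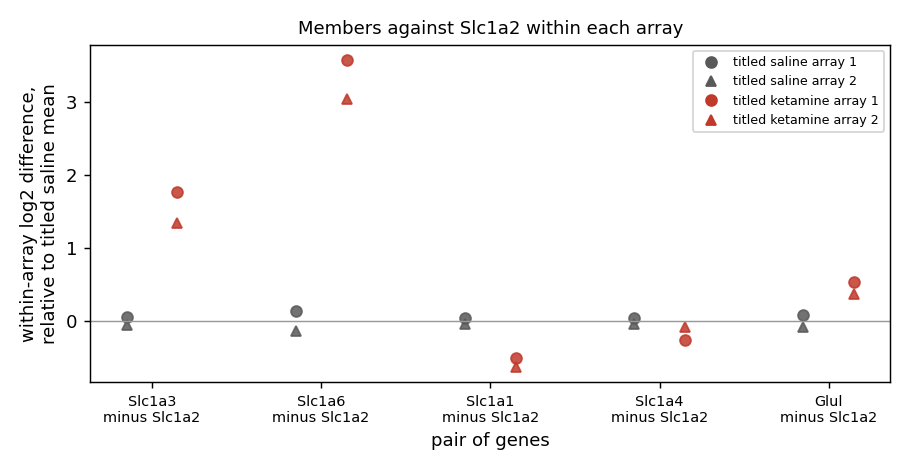
Change of each gene relative to Slc1a2 (y axis, log2 value of the gene minus log2 value of Slc1a2 on the same array, set to 0 at the mean of the arrays titled saline) for 5 pairs of genes (x axis), grey for arrays titled saline and red for arrays titled ketamine. Slc1a6 and Slc1a3 shift up against Slc1a2 by 3.30 and 1.55, Glul by 0.45, and Slc1a1 shifts down by 0.57.

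The neuronal carriers also parted. Slc1a6, the Purkinje cell carrier, read 5.82 and 5.57 on the arrays titled saline and 8.53 and 8.19 on those titled ketamine. It was high on both arrays titled ketamine and nearer the background level on both titled saline. The means were 5.69 ± 0.18 and 8.36 ± 0.24 (SD, n = 2 each), a log2 difference of 2.67 (standard error 0.15, 95% interval 2.31 to 3.02, adjusted p = 5.16e-05 from limma), or 6.34-fold. It ranked at 54 from the top of the 21789 tested rows. Within arrays it rose against Slc1a2 by 3.30 (pooled SD 0.30, n = 2 arrays a group). Markers of Purkinje cells moved with it. Of 16 measured markers 13 were higher, 1 lower and 2 not called by limma. The linear signal summed over the list was 8489.9 and 7645 on the arrays titled saline and 20898 and 20094 on those titled ketamine. Aldoc, which is also in the astrocyte list, read 12.01 and 11.92 against 12.55 and 12.55. These are the highest values in either list, so that this gene holds a large part of both sums. Among the Purkinje cell markers that were higher was Car8, which encodes a carbonic anhydrase-related protein, at 4.30. It read 7.81 and 6.37 on the arrays titled saline, a gap of 1.44, and 11.53 and 11.25 on those titled ketamine. Cbln1, which is made chiefly by granule cells and acts at their synapses on Purkinje cells, was at 3.96. Pcp2, a regulator of G proteins, was at 3.77. The marker that was lower was Itpka, an inositol trisphosphate kinase gene also expressed in forebrain neurons, at -0.70, and 1 marker, Ebf2, read below the background level on both arrays titled saline. How much of the Slc1a6 difference goes with these cells was not tested.

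Slc1a1, the widespread neuronal carrier, read 9.39 and 9.32 on the arrays titled saline and 8.11 and 8.19 on those titled ketamine. It was lower on both arrays titled ketamine, with gaps of 0.07 within each group. The means were 9.36 ± 0.05 and 8.15 ± 0.05 (SD, n = 2 each), a log2 difference of -1.21 (standard error 0.11, 95% interval -1.46 to -0.96, adjusted p = 0.000305 from limma), which is a ratio of 0.433. It was the largest fall among the 7 rows, and 4.46% of all rows had a larger difference in size. Relative to Slc1a2, which was itself lower, Slc1a1 shifted by -0.57 (pooled SD 0.08, n = 2 arrays a group). Of the 16 forebrain neuron markers 14 were lower on the same arrays, Emx1 was not called, and Etv1 was higher by 1.75. The linear signal summed over the 16 measured markers was 10572 and 10496 on the arrays titled saline and 3094 and 3021 on those titled ketamine. The transcription factor gene Tbr1 read below the background level on both arrays titled ketamine and Ddn on 1 of them, so that the size of their differences is not resolved. Nrgn, a calmodulin-binding protein gene, was at -4.64. Of 7 measured striatal markers 7 were lower. The part of these neurons in the Slc1a1 values was not tested.

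Slc1a4, the neutral amino acid exchanger, read 7.90 and 7.84 on the arrays titled saline and 6.87 and 7.24 on those titled ketamine. Both arrays titled ketamine were lower, and they stood 0.37 apart, a gap that 6.13% of all rows exceeded. The means were 7.87 ± 0.04 and 7.06 ± 0.26 (SD, n = 2 each), a log2 difference of -0.81 (standard error 0.14, 95% interval -1.15 to -0.47, adjusted p = 0.00572 from limma), which is a ratio of 0.570. Its change relative to Slc1a2 was -0.17 (pooled SD 0.10, n = 2 arrays a group), the smallest of the 5 such changes. It was -0.09 without titled ketamine array 1, -0.26 without titled ketamine array 2 and -0.28 after quantile normalization. The other genes of the family were near the background level. Slc1a5 (ASCT2), a glutamine exchanger, read 4.11 and 4.49 on the arrays titled saline and 4.64 and 4.62 on those titled ketamine, a difference of 0.33 (adjusted p = 0.117 from limma) that passed without titled saline array 2, at 0.52 (adjusted p = 0.0460 from limma). It was 0.14 without titled saline array 1 and 0.04 after quantile normalization, and did not pass in either. Slc1a7 (EAAT5), a carrier of the retina, read 4.44 and 4.60 against 4.55 and 4.72, a difference of 0.11 (adjusted p = 0.501 from limma) that became -0.17 after quantile normalization and -0.02 after median centring. Each of these read below the background level on 1 array.

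Glutamine synthetase, the glial enzyme that uses the recovered glutamate, did not pass on either of its rows. Row 10374453 of Glul read 11.77 and 11.63 on the arrays titled saline and 11.49 and 11.53 on those titled ketamine. Both arrays titled ketamine were slightly lower, and the log2 difference was -0.19 (standard error 0.11, 95% interval -0.45 to 0.07, adjusted p = 0.230 from limma). Row 10350753 of Glul read 11.17 and 10.95 on the arrays titled saline and 10.99 and 10.96 on those titled ketamine. Here both arrays titled ketamine fell between those titled saline, and the difference was -0.09 (standard error 0.12, 95% interval -0.37 to 0.19, adjusted p = 0.598 from limma). The 2 rows carry the same gene number, and every transcript accession of row 10350753 is also listed for row 10374453, so that they may read near-identical sequence, and they are not independent. The sources used do not settle which genomic site each of these rows reads. Their intervals leave room for a fall to a log2 difference of -0.45 and a rise to 0.19. Within arrays, only row 10374453 of Glul, the one with the higher mean, was set against Slc1a2. It shifted by 0.45 relative to Slc1a2 (pooled SD 0.12, n = 2 arrays a group). Slc1a2 was itself lower, by a log2 difference of -0.64, and this Glul row was not higher. Oligodendrocyte markers, of which 10 were measured, gave 1 higher and 9 not called, with a summed linear signal of 6137 and 6132 on the arrays titled saline and 6116 and 7666 on those titled ketamine. The part of these cells in the Glul values was not tested.

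**Figure D3:**
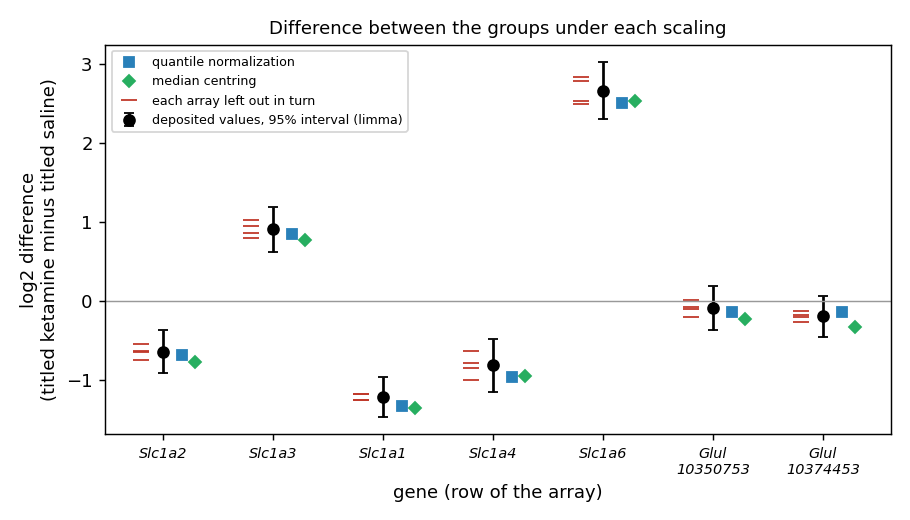
Log2 difference (y axis, arrays titled ketamine minus arrays titled saline, n = 2 each) for each row (x axis), with black points and 95% intervals from limma on the deposited values, blue squares after quantile normalization, green diamonds after median centring and red dashes with each array left out in turn. The 5 carriers keep their direction throughout, Slc1a6 between 2.50 and 2.84, while row 10350753 of Glul reaches 0.02 without titled saline array 1.

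Array by array, the directions of the 5 carriers held, but their calls were lost without either array titled ketamine. In both cases limma called no row of the whole table. At an unadjusted p under 0.05 it then found 5974 rows without array 1 and 6461 without array 2, and in each case 5 of the 7 rows of these genes were among them. Without titled ketamine array 1 the differences were 2.50 for Slc1a6, 0.80 for Slc1a3, -0.54 for Slc1a2, -0.62 for Slc1a4 and -1.17 for Slc1a1, with adjusted p from 0.128 to 0.133 from limma. Without titled ketamine array 2 they were 2.84, 1.02, -0.74, -0.998 and -1.25 in the same order, with adjusted p from 0.102 to 0.103 from limma. Without either array titled saline, Slc1a1, Slc1a2, Slc1a3 and Slc1a6 kept their calls. Slc1a4 lost its call without titled saline array 1 (adjusted p = 0.0580 from limma) or titled saline array 2 (adjusted p = 0.0534 from limma).

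On the deposited values the rest of the glutamate-glutamine cycle showed no common direction. Of 20 measured genes 3 were higher, 4 lower and 13 not called, beside 23.4% higher and 9.71% lower over all rows. The list median was 0.12 beside 0.13 for all rows. After quantile normalization 2 genes were higher and 5 lower, and after median centring 1 was higher and 5 lower. Of the glutamine carriers, Slc38a1, a system A transporter of neurons, was higher by 0.91 (adjusted p = 0.00128 from limma). It read 9.61 and 9.52 on the arrays titled saline and 10.54 and 10.40 on those titled ketamine. Slc38a2, of the same system, was higher by 0.60 (adjusted p = 0.0249 from limma; 0.0528 after median centring). Slc38a3, the astroglial carrier that exports glutamine, had a difference of 0.17 and did not pass. The vesicular glutamate transporters Slc17a6 and Slc17a7, which load glutamate into synaptic vesicles, were lower by -0.72 and -0.70 (adjusted p = 0.0178 and 0.00278 from limma). Slc17a6 read 9.95 and 9.85 on the arrays titled saline and 8.93 and 9.43 on those titled ketamine. Its difference was -0.47 without titled ketamine array 1 and -0.97 without titled ketamine array 2. Slc17a7 read 10.72 and 10.74 against 10.04 and 10.02, with less spread in each group. The transaminase gene Got1 and the GABA-synthesizing enzyme gene Gad1, the genes with the highest mean among those not called, had differences of 0.13 and 0.19. Gad2, which also encodes a GABA-synthesizing enzyme, was lower by -0.51 (adjusted p = 0.0112 from limma).

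The next list held genes of serine and glycine supply, whose products include substrates of Slc1a4. Of 12 measured genes 6 were higher, 1 lower and 5 not called, beside 23.4% higher and 9.71% lower over all rows, and the median of the list was 0.48. The largest differences were those of Dao, which encodes the enzyme that breaks down D-serine, at 3.91 (adjusted p = 2.01e-05 from limma) and of Slc6a5, the glycine carrier of glycinergic neurons, at 3.01 (adjusted p = 0.000188 from limma). Dao read 3.99 and 3.65 on the arrays titled saline, below the background level on both, and 7.65 and 7.82 on those titled ketamine, so that the size of its difference is not resolved. Slc6a5 read 5.29 and 5.68 against 8.14 and 8.84. Slc6a9, the glial glycine carrier, was higher by 0.78, and Gldc, of the glycine cleavage system, by 0.68. The gene that was lower was Srr, which encodes serine racemase, the maker of D-serine, at -0.62 (adjusted p = 0.00464 from limma). Srr was named after its value was seen. Psat1 and Phgdh, enzymes of serine synthesis in astrocytes, had differences of -0.16 and -0.18 and did not pass.

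The third list held genes of proteins that bind, traffic or regulate the carriers, or that serve the potassium and sodium gradients they depend on. Of 14 measured genes 4 were higher, 3 lower and 7 not called, beside 23.4% higher and 9.71% lower over all rows. The median of the list was 0.16. After quantile normalization or median centring 3 were higher and 3 lower. Stx1a, the syntaxin of synaptic vesicle fusion, was lower by -2.51 (adjusted p = 4.80e-05 from limma), with 8.33 and 8.54 on the arrays titled saline and 5.79 and 6.07 on those titled ketamine. The potassium channel genes Kcnk1 and Kcnj10, the latter the main potassium channel of astrocytes, were higher by 0.96 and 0.56, and Slc9a3r2, a PDZ scaffold gene, by 0.95. Slc9a3r1, the related scaffold known to bind the Slc1a3 protein, had a difference of 0.21 and did not pass. Arhgef11, whose product is known to bind the Slc1a6 protein in rat, read 7.84 and 7.65 on the arrays titled saline and 7.91 and 7.92 on those titled ketamine, a difference of 0.17 (adjusted p = 0.284 from limma). Slc1a6 differed by 2.67 on the same arrays. Pura, a DNA-binding protein gene, had a difference of 0.07 and did not pass.

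**Figure D4:**
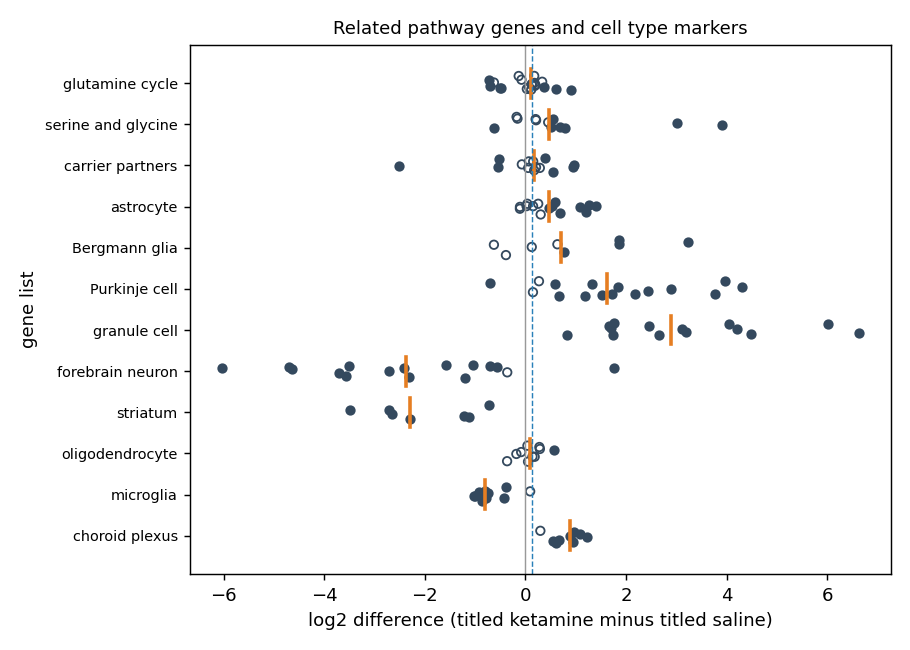
Log2 differences (x axis, arrays titled ketamine minus arrays titled saline) of the measured genes of 3 pathway lists and 9 marker lists (y axis); points are genes, filled where the adjusted p from limma was under 0.05, orange bars are list medians and the dashed line is the median of all tested rows, 0.13. The glutamine cycle list has its median at 0.12, the Purkinje cell and granule cell lists at 1.62 and 2.88, and the forebrain neuron and striatum lists at -2.37 and -2.30.

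The remaining marker lists were read beside the carriers because glia and ventricular tissue could also be in a dissected piece. In the microglial list 10 of 11 genes were lower, with C1qb, a subunit of complement, at -1.02. In the choroid plexus list 8 of 9 measured genes were higher, with Slc4a5, a bicarbonate transporter gene, at 1.23. In the granule cell list the receptor subunit gene Gabra6 was at 6.62, Cbln3 at 6.01 and the transcription factor gene Neurod1 at 4.48. Gabra6 itself read 6.73 and 3.28 on the arrays titled saline, the latter below the background level, so that the size of its difference is not resolved. The summed linear signal of that list was 1558 and 1281 on the arrays titled saline and 14206 and 12947 on those titled ketamine. Rora, the orphan receptor whose half-site was searched in the promoter windows, was higher by 1.18 (adjusted p = 0.000614 from limma); it belongs to the Purkinje cell list and was named after its value was seen.

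Genes with the most similar pattern over the 4 arrays were found by the Euclidean distance between log2 values, each centred on the gene's own mean. Of the 7 rows Slc1a6 had the fewest genes near it, with 44 within a distance of 0.5. The values were not scaled, so that this count mostly follows the size of the difference between the groups. The genes nearest to Slc1a6 were Tll1, a metalloprotease gene, at a distance of 0.03, and the transcription factor genes Tfap2b and Pax6, both at 0.08. Tll1 read 5.37 and 5.14 on the arrays titled saline and 8.11 and 7.79 on those titled ketamine, so that array 1 was above array 2 in each group, as for Slc1a6. Nearest to Slc1a1 were Pitpnm2, Adgrl2, which encodes a latrophilin, and Grik5, which encodes a kainate receptor subunit, at 0.04 to 0.05, with 628 genes within 0.5. Nearest to Slc1a4 were Robo1, an axon guidance receptor gene, Csf1r, the microglial growth factor receptor gene, and Cdkl2, at 0.03 to 0.05, with 1349 genes within 0.5. Robo1 read 6.94 and 7.27 on the arrays titled ketamine, with array 2 above array 1 as for Slc1a4. Slc1a2 had Cracd, Clip4 and Itm2c nearest, and Slc1a3 had Myof, Gm14410 and Zfp235, with 3061 and 3064 genes within 0.5. Row 10350753 of Glul was nearest to Cpa3, Golm2 and F8 and row 10374453 to Zeb2, Kpna2 and Crybg3, and 12403 and 11488 genes lay within 0.5 of them. Of these nearest genes, Gm14410 and Cpa3 read below the background level on every array, so that their patterns are not resolved. Similarity over 4 arrays in 2 groups is a description only, and a shared order of arrays follows from the choice by distance.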

How the data were processed

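RNA that the methods describe as from prefrontal cortex was hybridised to 1-colour arrays. The deposited values are log2 signals, which the authors obtained with RMA (Affymetrix Expression Console). RMA corrects background, equalises the probe distributions of the arrays and summarises each transcript cluster, so that low values are compressed and a shift shared by most genes is partly removed. Its version and the genome build were not given in the sources used. No scanner file entered the work. The number of arrays limits the precision.

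Gene names came from the platform annotation. Of 35556 rows, 21789 with exactly 1 symbol were tested; 1621 with several symbols and 12146 with none were left out. Groups were compared with limma (version 3.58.1, R version 4.3.3; lmFit and eBayes, no trend, not robust) and Benjamini-Hochberg adjustment over all tested rows. The script was tested on simulated data. For lists and for changes relative to Slc1a2, the row with the highest mean stood for each gene. Summed linear signals add 2 raised to the log2 value.

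The 6 genes and the gene lists were chosen with earlier results of these data known. Listed genes without a row of their own were not analysed here. The rule for named genes took all rows of the 6 genes, Slc1a5, Slc1a7, Arhgef11 and 1 gene not reported here, up to 4 called and 2 uncalled genes of each pathway list (largest difference, highest mean), up to 3 called genes of each marker list and the 3 genes nearest in pattern to each row. Gfap, Aldoc, Etv5, Gria1, Etv1, Emx1, Itpka, Ebf2, Slc38a3, Gad2, Srr and Rora fall outside it and were picked with their values in view. Alternatives were quantile normalization, median centring, a filter on dim rows, other moderation, other row sets, the replicate number as a block, fold thresholds and each array left out.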

Additional observations from a re-analysis of the deposited data

How the results depend on the processing

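The 5 carriers kept their direction under every alternative run, and their calls under quantile normalization, median centring, the dim-row filter, eBayes with trend or robust, all rows, 1 row per gene and the replicate block; the log2 difference of Slc1a6 then ranged from 2.51 to 2.67 and that of Slc1a2 from -0.77 to -0.64. At 2-fold, 1 row was higher (Slc1a6) and 1 lower (Slc1a1) of the 7. With an array left out, 0 to 2 rows were called higher and 0 to 2 lower, since limma called none without either array titled ketamine. The difference of row 10350753 of Glul then ranged from -0.20 to 0.0207, the latter without titled saline array 1. The change of Slc1a4 relative to Slc1a2 was -0.28 after quantile normalization in place of -0.17. Of all tested rows, 5109 were called higher and 2115 lower; these became 2923 and 4049 after quantile normalization, 3210 and 3213 after median centring, 0 to 3171 and 0 to 1403 with an array left out, and 805 and 649 at 2-fold. After median centring, chosen for lists after seeing the data, 1 glutamine cycle gene was called higher in place of 3, and 5 lower in place of 4. The titles number the arrays 1 and 2 in both groups, and deviations of same-numbered arrays correlated at 0.03 across rows. A correlation over all rows cannot show whether the numbers mark a pairing that affects some rows. As a block the number gave 2 and 3 calls among the 7 rows and 5896 and 2354 among all. The cause of these shifts was not tested.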

Other observations

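Some glial genes differed between the 2 arrays titled ketamine, as Slc1a4 did. Slc6a11, a GABA carrier of astrocytes, read 9.08 on array 1 and 9.94 on array 2, beside 10.11 and 10.17 on the arrays titled saline. Its log2 difference was -0.63 (adjusted p = 0.0947 from limma), and it ranged from -1.06 to -0.20 with an array left out. It passed after quantile normalization (adjusted p = 0.0487) and after median centring (adjusted p = 0.0360), both from limma. Fabp7, a fatty acid binding protein of radial and Bergmann glia, read 7.83 and 8.74 on these arrays, and Opalin, an oligodendrocyte membrane protein gene, 5.54 and 6.63. In all 3 genes array 2 was the higher one. They were chosen after their values were seen.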
